A study of Mus musculus with 10 samples.

Results

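The first input library of mouse embryonic stem cells was compared with the 2 wild-type (WT) input libraries of the same series. An input is fragmented cellular RNA sequenced without precipitation, so it gives transcript levels and not N6-methyladenosine (m6A). The 3 libraries were taken by their titles from the 10 libraries of the series, 5 of which are inputs. All 3 came from J-1, an established embryonic stem cell line from the inner cell mass of a mouse blastocyst. The labels describe culture without feeder cells, strand-specific libraries prepared with dUTP, and Mettl3 WT as the genotype of replicates 1 and 2. They give no genotype and no replicate number for the first input, and they do not say that the WT replicates came from separate cultures. The labels' protocols also mention differentiation by culture without LIF, a cytokine that holds stem cells undifferentiated, but no label marks any of these libraries as differentiated. Mettl3 knockout (KO) inputs, from cells without the functional m6A methyltransferase, serve here only as 2 further later libraries.

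With 1 library against 2 there is no test, and all values describe these libraries. A gene was measured when it had at least 1 RPKM (reads of a gene scaled to its length and to the library's total) in at least 2 of the 3 inputs, which 11417 of 30419 genes did. It was called higher, or lower, when log2(RPKM + 1) in the first input lay at least 1 above, or below, both WT inputs. This scale understates the change of low genes. The filter is lopsided. It kept 576 genes with at least 1 RPKM in both WT inputs only, of which 494 were called lower. It left out 1193 genes with at least 1 RPKM in the first input only, of which 159 would have met the rule for higher.

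An embryonic stem cell is kept undifferentiated by a network of transcription factors around Pou5f1, Sox2 and Nanog. Its RNA also holds large amounts of messages for ribosomal proteins and of noncoding RNAs that ribosomes, splicing and telomeres need. Messages of replication-dependent histones end in a stem-loop instead of a poly(A) tail, and many small RNAs have no tail either, so a library's method of RNA selection can change their levels. The method of RNA selection is not given in the sources used here.

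The first RNA stood far from the WT RNA. Higher were 2080 genes (18.2%) and lower were 966 (8.46%), while the 2 WT inputs differed from each other by at least 1 in 9 genes (0.0788%). Across genes log2 RPKM correlated at 0.672 and 0.670 between the first and the WT inputs and at 0.997 between the WT inputs; genes are not independent replicates. The differences were lopsided in size. Lower genes had a median RPKM of 0.914 in the first input against 21.9 in the WT mean, and 171 lay at least 5 below both WT inputs on the log2 scale. Higher genes had a median of 15.99 against 5.53, and 1 lay at least 5 above both. The lower genes made up 45.8 and 45.9% of the summed RPKM of measured genes in the WT inputs and 5.19% in the first input.

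The whole scale was shifted as well. The median difference over all measured genes was 0.51, so most genes read above WT. After subtraction of this median 371 genes (3.25%) were higher and 1332 (11.7%) were lower, and the higher calls below must be read beside that count. Mean coverage of the exon windows, which the authors deposited separately, gave 1888 higher (16.5%) and 947 lower (8.29%), of which 1846 and 926 had the same call in RPKM and 0 the opposite one. Against all 4 later inputs, KO included, coverage gave 1511 higher (13.2%) and 889 lower (7.79%). The first column of the RPKM table correlated at 0.992 with coverage of the first input and at 0.753 with that of the first immunoprecipitate, so it holds the input it names. Low coverage values lay within 0.05 of whole multiples of 1 unit per library, and summed coverage divided by that unit put WT inputs 1 and 2 at 0.438 and 0.457 times the first input. Absolute read numbers are unknown.

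**Figure D1:**
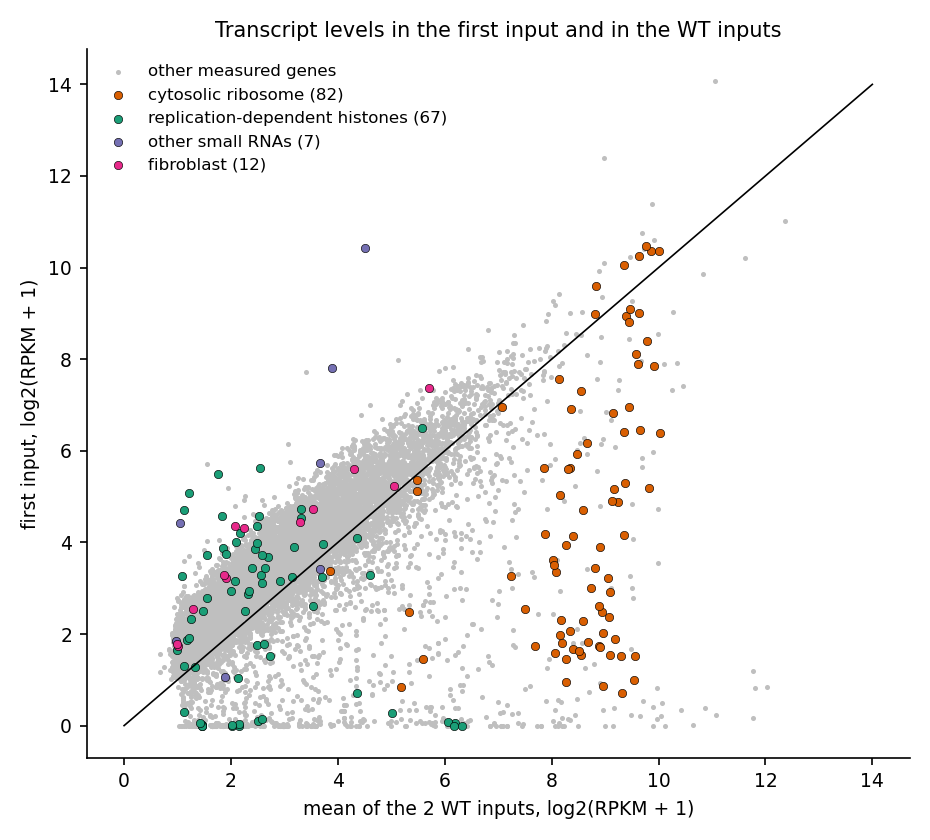
Each point is 1 of 11417 measured genes, with log2(RPKM + 1) in the mean of the WT inputs on the x axis and in the first input on the y axis; the line marks equal levels. Ribosomal protein genes (82, orange) spread from the line down to near 0 in the first input, while 4 of the 7 other small RNAs lie above both WT inputs by at least 1.

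Stable noncoding RNAs led the higher side. The largest difference was in Rmrp, the RNA of the ribonuclease MRP, which cuts ribosomal RNA precursors. It stood at 1384 RPKM in the first input against 25.1 and 18.6 in the WT inputs, 63.5 times their mean. Rpph1, the RNA of ribonuclease P, which trims transfer RNA, had 222 RPKM against 15.6 and 12.2. Terc, the template RNA of telomerase, had 20.5 against 1.18 and 0.957. The first input was thus above both WT inputs by more than 10 times in each of these RNAs. Rnu11, a small nuclear RNA of the minor spliceosome, had 51.9 RPKM against 11.7 and 11.6. Of the 7 measured members of the list of other small RNAs these 4 were higher and 0 lower (57.1% higher, against 18.2% of all genes), and the same 4 were higher after the median was subtracted. The exceptions were Vaultrc5, a vault RNA with 2.61 against 0.910 and 1.02, Rnu12 with 1.09 against 3.72 and 1.66, and Rnu73b. Summed over the list the level was 1692 RPKM in the first input and 69.7 and 57.7 in WT, with Rmrp holding most of the first sum. The ribosomal RNA precursor Rn45s followed with 17118 RPKM against 2317 and 1926, or 8.07 times the WT mean. It is 1 of several near-identical copies in the genome, so its level is uncertain in all libraries.

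The 12 highest genes that coverage called as well were, in order, Rmrp, 2900060B14Rik, Rpph1, Hist1h4d, Hist2h2bb, Hist1h1a, uc009vev.1, Terc, Snora78, Hist2h4, Mir1949 and Rn45s. Apart from 2900060B14Rik, at 51.7 RPKM against 1.91 and 1.96, and uc009vev.1, at 5397 against 528 and 477, all are named as histone genes or as noncoding RNAs. The names were taken from the files, which do not pair uc009vev.1 with a symbol.

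Small nucleolar RNAs, which guide the modification of ribosomal RNA, were split. Of 95 measured snoRNA genes 25 were higher and 24 lower (26.3 and 25.3%), with a median of −0.22, or −0.73 after the general shift was removed. The H/ACA type, named Snora, had 10 higher and 4 lower of 31, and the C/D type, named Snord, 14 higher and 20 lower of 58. Snora78 had 35.5 RPKM against 2.65 and 3.08. Snord100 had 254 against 33.3 and 34.7. On the other side Snord49a had 48.8 against 942 and 714. These genes span a median of 2 windows, and for them the 2 measures often parted. Snord82 was lower in RPKM, at 6.69 against 130 and 126, but its coverage was 105 against 106 and 116. Snord32a was higher in RPKM, at 211 against 10.1 and 9.09, with coverage of 106 against 81.6 and 74.4. By coverage 16 snoRNA genes were higher and 24 lower.

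MicroRNA genes leaned lower. In this assay their level comes from longer transcripts that contain the hairpin, not from the mature microRNA. Of 73 measured genes 8 were higher and 19 lower (10.96 and 26.0%), with a median of −0.41; by coverage 14 were higher and 16 lower. The cluster of Mir290 to Mir295, on chromosome 7, is the most active microRNA locus of mouse embryonic stem cells, and several of its members share a seed that promotes the transition from G1 to S phase. All 7 genes were measured, 4 of them lower and 0 higher. The mature 3p sequences of 5 of them in RefSeq (GRCm38.p6) are shown, since they carry the seed (bases 2 to 8, in capitals) that groups them:
Mir291a, miR-291a-3p, chr7:3218968-3218989, plus strand: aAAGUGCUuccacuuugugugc
Mir294, miR-294-3p, chr7:3220691-3220712, plus strand: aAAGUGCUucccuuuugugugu
Mir295, miR-295-3p, chr7:3220815-3220837, plus strand: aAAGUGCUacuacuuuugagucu
Mir291b, miR-291b-3p, chr7:3219529-3219550, plus strand: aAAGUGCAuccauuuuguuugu
Mir293, miR-293-3p, chr7:3220390-3220411, plus strand: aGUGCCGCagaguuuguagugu
Mir291a, Mir294 and Mir295 share a seed, and the seeds of Mir291b and Mir293 differ from it and from each other.

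The calls did not follow the seed. Mir294 had 9.43 RPKM against 26.8 and 27.5, and Mir295 had 17.4 against 52.1 and 51.0; both were lower. Mir291a, with the same seed, had 2.44 against 5.05 and 3.29 and was not called. Mir291b (10.1 against 35.1 and 31.1) and Mir293 (1.22 against 26.4 and 26.1) were lower. Mir290 had 2.24 against 2.98 and 2.12 and Mir292 3.83 against 7.53 and 7.72, neither called. By coverage Mir291b, Mir293 and Mir295 were lower and Mir290 was higher (14.3 against 3.21 and 3.21). Genes that are neighbours within a cluster thus moved unequally, over 2 windows each.

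The lowest microRNA genes lay far below both WT inputs. Mir684-1 was listed at 0 in the first input against 274 and 309 RPKM in WT, and its name stands at several loci in the table. Mir703 had 5.91 against 687 and 777, and Mir682 had 7.05 against 699 and 758. Mir1906-1 and Mir1906-2 had the same value, 0.0144 against 14.7 and 13.4. Their mature sequences, shown because they are identical at loci on 2 chromosomes, were:
Mir1906-1, miR-1906, chr12:109544588-109544609, plus strand: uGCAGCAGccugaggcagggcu
Mir1906-2, miR-1906, chrX:88759485-88759506, minus strand: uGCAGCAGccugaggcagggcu
Of 62 microRNA genes matched to the RefSeq table (GRCm38.p6), 7 had a mature sequence at 2 or more loci, with 4 lower and 0 higher. Of the other 55, 11 were lower and 6 higher. All 4 lower genes with several loci had under 1 RPKM in the first input, so they passed the filter through the WT inputs alone. The 2 Mir1906 genes among them had equal values and are not separate observations, and Mir92-2 was not called by coverage. The counts thus do not test a link with copies.

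Histone genes were split. Replication-dependent histones package DNA as it is copied. Of 67 measured genes 21 were higher (31.3%, against 18.2% of all genes) and 19 lower (28.4%, against 8.46%), with a median difference of 0.56, or 0.050 after the general shift was removed. Linker histone H1 genes were higher in 3 of 3 measured: Hist1h1a had 25.1 RPKM against 1.16 and 1.22, and Hist1h1b, named after its values were seen, had 23.0 against 3.03 and 2.08. Histone H3 genes had 7 higher and 1 lower of 12, and H4 genes 5 higher and 3 lower of 13. Hist1h4d had 43.8 RPKM against 2.34 and 2.43. H2B genes had 3 higher and 4 lower of 19. Hist2h2bb had 32.8 against 1.66 and 0.991. The lower calls were mostly H2A, with 11 lower and 3 higher of 20. Hist1h2ao.2 and Hist1h2ap.2 were listed at 0 against 84.6 and 72.8, and against 77.0 and 65.5. Hist1h2ad had 0.213 against 32.9 and 29.5.

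Signs of copies were frequent among the lower histone genes. Of the 67 genes 14 carried a sign of a near-identical copy (equal values in both WT inputs as another gene, 1 name at several loci, or a pseudogene named after the gene in RefSeq), and all 14 were lower. Among the other 53, 21 were higher and 5 lower, with a median of 0.80. By type, the 14 were 8 H2A, 4 H2B and 2 H4 genes. Without a sign, H2A had 3 higher and 3 lower of 12, with a median of −0.15. H2B had 3 higher and 0 lower of 15, and H4 had 5 higher and 1 lower of 11. The type of histone and the signs of copies thus went together among the lower calls. Equal values were sought in the WT inputs only, so that sign is not independent of the calls. Hist1h2ao, at 0.0418 RPKM against 77.3 and 66.2, and Hist1h2ap, at 0.0488 against 71.8 and 60.5, passed the filter through the WT inputs alone. So did Hist1h2ao.2 and Hist1h2ap.2. Such a filter favours lower calls, so these counts do not test a link with copies. Replacement histones, which are made throughout the cell cycle, had single members on both sides. H3f3a, with a sign of copies, had 4.43 RPKM against 246 and 274, and H2afz had 26.6 against 464 and 491 without such a sign. H1fx had 65.3 against 16.5 and 17.3, and H2afx, the histone marked at DNA breaks, had 245 against 98.9 and 103. In all, 2 of 11 replacement histones were higher and 2 lower (18.2% each, against 18.2 and 8.46% of all genes). Their median difference was 0.51, as over all genes.

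Ribosomal protein genes were the lowest large class. Of 82 measured genes 66 were lower (80.5%, against 8.46% of all genes) and 0 higher, with a median of −4.25. Both subunits took part, with 25 of 31 Rps genes and 39 of 49 Rpl genes lower. Rps29 had 0.630 RPKM against 628 and 639, and Rps23 had 0.992 against 745 and 733. Summed, the class held 12573 RPKM in the first input and 38866 and 38470 in WT. The remaining genes were not called, among them Rplp1 with 1322 against 1051 and 1005 and Rplp0 with 512 against 786 and 806, both named after their values were seen. Some uncalled genes lacked coverage as well, since 74 of the 82 had at least 20% of covered windows missing (a window under 1/10 of its WT coverage). Rplp0 lacked 10 of 29. Its coverage was 125 against 340 and 322 in the 5′ part and 106 against 268 and 297 in the 3′ part, both called lower. So the class did not shift as a block: its differences ran from −8.60 to 0.76. Of the 82 genes 65 carried a sign of copies. In the 17 without one 10 were lower, with a median of −1.47.

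The same spread appeared among other highly expressed genes. Ppia, a peptidyl-prolyl isomerase, was the lowest gene with a symbol among those that coverage also called, at 0.402 RPKM against 1016 and 1114. It and the actin gene given next were picked after their values were seen, since the 12 lowest genes of the naming rule all have UCSC identifiers only. The lowest of the 12 were uc009vfa.1, at 0.127 against 3143 and 3821, and uc009vez.1, at 0.807 against 4008 and 4353. Actg1, a cytoplasmic actin, had 2.20 against 699.8 and 734. Genes were also divided into 10 groups of equal size by WT level. In the group with the highest levels (39.1 RPKM or more) 34.3% were lower and 7.71% higher, while in the lowest group 2.28% were lower and 15.1% higher. The groups were cut by the WT values that enter the difference, so these shares describe the calls and do not test them. In the lowest group the WT mean was 0.585 to 1.55 RPKM, which left little room for a lower call on this scale.

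Signs of copies marked much of the lower side. Of 97 genes with the same value as another gene in both WT inputs 95 were lower, and of 207 genes whose name stands at several loci 204 were. Equal values were sought in the WT inputs only, at 1 RPKM or more, so that sign is not independent of the calls. Both sets had a median of 0 RPKM in the first input, against 2.91 and 4.44 in the WT mean. Many of their genes thus passed the filter only through the WT inputs, and these 2 counts do not test a link with copies. Of 302 genes after which RefSeq names at least 1 pseudogene 153 were lower, and of 58 with at least 3 such pseudogenes 50 were. Genes with any of these signs numbered 512, with 358 lower (69.9%) and 15 higher. The other 10905 had 608 lower (5.58%) and 2065 higher (18.9%). Genes named Gm and a number, many of which are predicted or pseudogenes, were lower in 183 of 261, and genes with a UCSC identifier only in 115 of 270. The Gm genes had a median of 0.283 RPKM in the first input against 4.11 and 4.21 in WT. Most of them thus passed the filter through the WT inputs alone, and their count does not test a link with copies either. The tracks of the first pair of libraries are named unique in the file headers, and those of the later pairs are not. How reads with several positions were counted is not given in the sources used here, and its part in the lower calls was not tested.

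Lower genes lacked coverage in many single windows. A window was taken as covered when its mean WT coverage was at least 10, and as missing when coverage in the first input was under 1/10 of that. Of 189281 covered windows 18862 (9.97%) were missing, and 5982 of these were at 0. Between the WT inputs no window was missing in either direction, and in KO input 1 against WT input 1 only 10 of 187732 were. In the other direction 4.40 and 4.02% of the windows covered in the first input were missing in WT inputs 1 and 2. Among genes with at least 5 covered windows, 564 of 575 lower genes had at least 20% of them missing, against 373 of 4367 uncalled and 10 of 1027 higher genes. The median share was 76.9% in lower genes, 1.59% in uncalled genes and 0% in higher genes. Windows and RPKM come from the same reads, so these shares describe the calls and do not test them. Genes lower by only 1 to 2 had a median of 44.3% missing. In the 383 lower genes without any sign of copies the median was 75.0%, and in the 192 with one it was 79.3%.

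Hspa8, the constitutive 70-kDa class chaperone, shows the pattern. Its level was 237 RPKM against 1082 and 1121. Of its 48 windows 36 were missing in the first input, with a median window coverage of 2.98 against 992 and 1015. In the 12 kept windows mean coverage was 792 against 597 and 662. Of these, 6 were above both WT inputs and 6 below both, and the windows were kept by the level of the first input itself. The highest window had 2203 against 967 and 934. Rps29 had 7 of 7 covered windows missing and Ppia 17 of 17. In Rmrp 0 of 5 covered windows were missing.

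**Figure D2:**
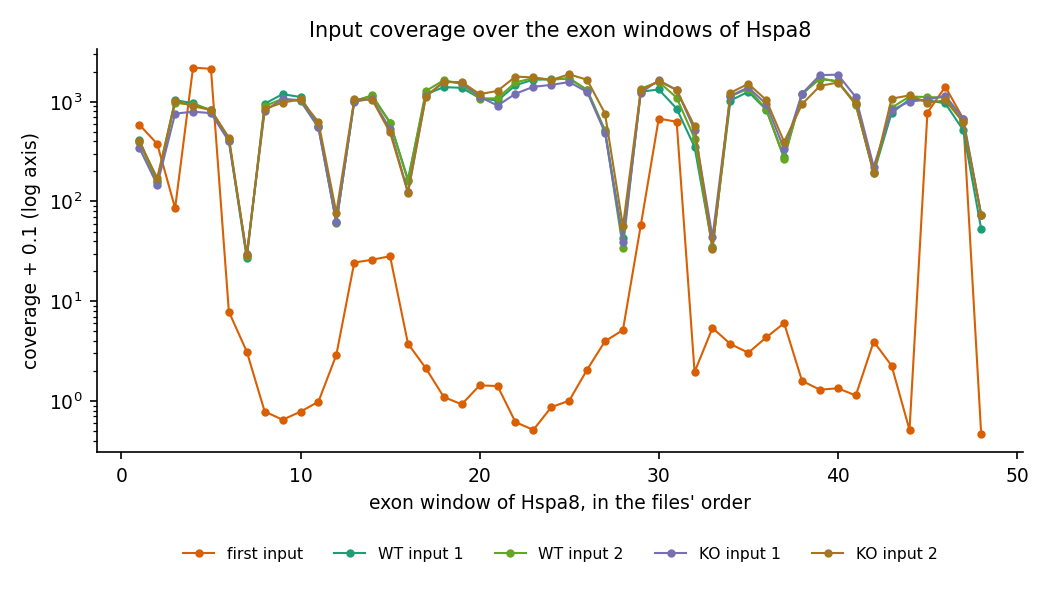
Coverage plus 0.1 (log axis) over the 48 exon windows of Hspa8 in the order of the files, for the 5 inputs. The 4 later inputs follow each other, while the first input drops by more than 10 times below the WT mean in 36 windows. In the remaining windows it lies above both WT inputs in some and below both in others.

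Over windows that were kept, the difference of lower genes shrank. In the 281 lower genes with at least 5 kept windows the median was −0.86, with 101 still lower and 3 higher. Leaving out missing windows removes low values by construction, so some of this change follows from the choice. The immunoprecipitates of the same pairs differed in the same direction: the median log2 difference in gene coverage between the first and the WT immunoprecipitates was −2.70 in lower, 0.28 in uncalled and 0.84 in higher genes with at least 5 covered windows.

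Long transcripts were higher more often than short ones. Exon windows per gene measured length, by which genes were divided into 10 groups of equal size. In the shortest group (1 to 20 windows) the median difference was −0.086, with 11.9% higher and 32.4% lower, and in the longest group (127 to 656 windows) it was 0.70, with 26.3% higher and 0.438% lower. The median of WT input 1 minus WT input 2 stayed between −0.045 and −0.016 over the 10 groups. Genes with 21 exons or more were higher in 446 of 1377 (32.4%) and lower in 2, and single-exon genes were higher in 89 of 709 (12.6%) and lower in 227 (32.02%). The step from the shortest to the longest group was 0.78. It was 0.57 without genes with signs of copies and 0.32 when only genes with no missing window were divided anew by length. Genes with no missing window had medians of 0.56 in the shortest and 0.97 in the longest of the 10 groups of all genes.

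**Figure D3:**
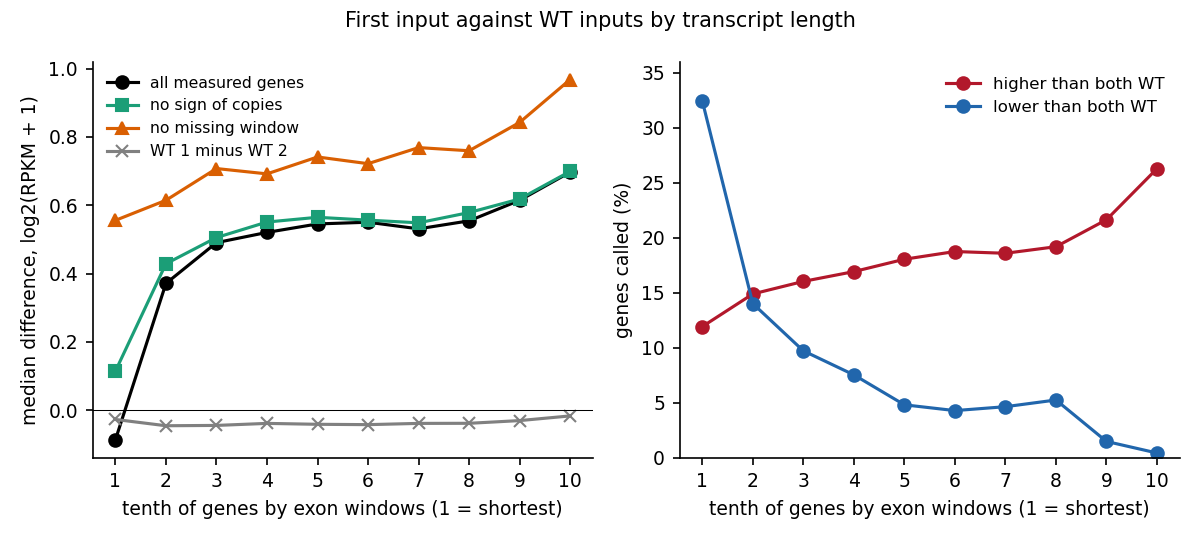
Left, median difference in log2(RPKM + 1) between the first and the WT inputs in 10 groups of genes by number of exon windows, for all measured genes, genes without signs of copies and genes with no missing window, with WT input 1 minus WT input 2 for scale. Right, percent of genes called higher and lower: lower calls drop from 32.4% in the shortest to 0.438% in the longest group.

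Coverage was also spread differently along the transcript. Exons are numbered in genomic order in the files. Exon 1 had a median of 4 windows in 3759 plus-strand genes with at least 3 exons and 23 in 3695 minus-strand genes, with the reverse for the last exon, so windows were turned by the strand in RefSeq. In 3597 genes of at least 20 windows and a mean coverage of at least 5 in every input, each gene's windows were divided into 5 parts of equal number. The 3′ part held a median of 16.5% of coverage in the first input against 26.3 and 27.8% in the WT and 28.1 and 27.0% in the KO inputs. The 5′ part held 15.3% in the first input against 11.5 and 10.7% in the WT inputs. The 3′ share was below all 4 later inputs in 2731 of the 3597 genes (75.9%) and above all in 451. Coverage was less even too. The median coefficient of variation over a gene's windows was 0.941 in the first input and between 0.627 and 0.667 in the later ones, and 0.893 against 0.621 to 0.662 in the 1861 genes with no missing window.

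**Figure D4:**
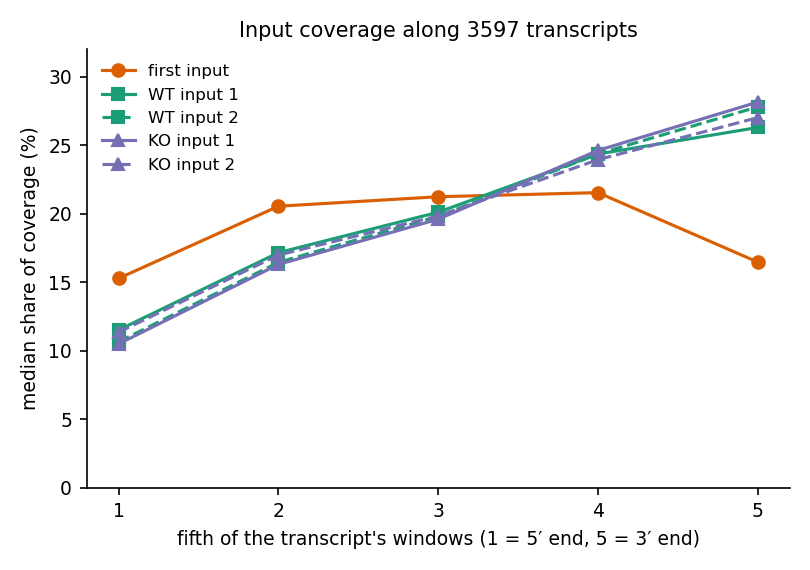
Median share of a gene's input coverage (%) in each of 5 parts of its windows from the 5′ to the 3′ end, over 3597 genes, for the 5 inputs. The 4 later inputs climb towards the 3′ end, to between 26.3 and 28.1%, and the first input ends at 16.5%.

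The difference between the inputs was larger at the 5′ than at the 3′ end. In 7487 genes of at least 20 windows with a known strand, the median difference in coverage was 0.79 in the 5′ part, 0.73, 0.60 and 0.40 in the next ones, and 0.046 in the 3′ part. Higher calls numbered 2476 in the 5′ and 756 in the 3′ part, and lower calls 257 and 827. Of the 1479 genes of this set called higher in RPKM, 983 were higher in their 5′ part, 565 in their 3′ part and 343 in both. The length trend was 0.63 from the 5′ part alone and −0.020 from the 3′ part alone. Of 311 genes called lower, 200 were lower in the 5′ part, 217 in the 3′ part and 135 in both.

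Pluripotency genes were present in all 3 inputs. Pou5f1, the factor that defines pluripotent cells, had 315 RPKM in the first input against 291 and 307, so the first input was above WT input 2 by 0.04 on the log2 scale and above WT input 1 by 0.11. Nanog had 254 against 217 and 223, and Sox2 had 270 against 166 and 179; neither was called. Of 12 genes of general pluripotency 3 were higher and 2 lower (25.0 and 16.7%), with a median of 0.32, which turned to −0.19 once the general shift was removed. Utf1, a chromatin factor of undifferentiated cells, had 299.8 RPKM against 83.4 and 88.2, Trim71 had 38.96 against 13.2 and 13.05, and Sall4 had 79.4 against 35.1 and 36.3. Dppa4 (17.8 against 38.4 and 40.4) and Dppa2 (13.5 against 28.8 and 34.1) were lower, with 8 and 12 missing windows.

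Naive genes, which mark the state before implantation, had 5 higher and 2 lower of 33 measured (15.2 and 6.06%), near the background shares of 18.2 and 8.46%. Their median of 0.49 became −0.020 after the shift was removed. Klf5, a Krüppel-like factor, had 136 RPKM against 35.1 and 36.5, and Socs3, an inhibitor that LIF signalling induces, had 75.5 against 24.7 and 24.0. Cdh1, which encodes E-cadherin, had 93.3 against 38.3 and 38.9. Gbx2 (13.7 against 4.50 and 5.59) and Pecam1 (26.5 against 12.6 and 11.9) were the other higher genes. Lower were Zfp42, also known as Rex1, with 52.4 against 123 and 127, and Dppa3, with 6.87 against 15.3 and 18.4. Both carry signs of copies, and Dppa3 was not called by coverage. Of the uncalled genes, Esrrb had 148 against 80.5 and 82.2, Klf4 had 117 against 72.9 and 76.1, and Tfcp2l1 had 45.5 against 45.3 and 46.1.

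Over the pluripotency lists, too, the first input was above WT at the 5′ end, with medians of 1.29 in 9 general and 0.79 in 21 naive genes, and near or below WT at the 3′ end, with −0.040 and −0.16. Single genes varied. Those named next were chosen after their values were seen. The 3′ part of Pou5f1 had a coverage of 0.730 in the first input against 281 and 304, while its 5′ part had 383 against 223 and 215. The 3′ part of Nanog had 53.5 against 221 and 257, and its 5′ part 294 against 277 and 286. Klf4 had 18.9 against 138 and 147 in the 3′ part, and Zfp42 had 20.6 against 165 and 186. Sox2 parted in both directions, with 283 against 95.1 and 89.3 in the 5′ part and 137 against 271 and 345 in the 3′ part. Esrrb was above WT mostly in the 5′ part, at 31.1 against 8.68 and 8.70, with 178 against 124 and 136 in the 3′ part, and Socs3 was above WT in both parts.

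Primed and formative genes, which come on as cells leave the naive state, had 4 higher and 0 lower of 15 measured (26.7 and 0%). Zic2 had 9.99 RPKM against 2.94 and 2.86, Fgfr1 had 20.7 against 6.85 and 7.23, Cldn6 had 48.1 against 22.4 and 23.1, and Pou3f1 had 8.62 against 3.23 and 3.76. After the general shift was removed none of the 15 was called. Otx2, at 4.46 against 0.809 and 0.836, and Lef1, at 2.999 against 0.810 and 0.658, had under 1 RPKM in both WT inputs and fell outside the filter. Fgf5, a hallmark of primed cells, stood at 0.358 against 0.115 and 0.0897, under 1 in all 3 inputs.

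Genes of the 2-cell-like state, a rare and transient state of cultured stem cells, were lower in 8 of 9 measured and higher in 0. The lower share was 88.9%, against 8.46% of all genes. The median RPKM of the 9 was 0.282 in the first input against 4.65 and 5.49, so most passed the filter through the WT inputs alone. Such a filter favours lower calls, so the share describes the measured members only. Zscan4f had 0.235 RPKM against 6.97 and 8.59, and Zscan4c had 0.281 against 5.93 and 7.15. Gm4340 was listed at 0 against 6.74 and 6.94. Summed over the list the level was 6.36 RPKM in the first input and 43.2 and 49.4 in WT. Of the 8, 6 are Zscan4 genes, which are near-identical to each other, so they may share reads and are not 6 separate observations; 1 of the 8 carried a sign of copies by the criteria above. In bulk RNA fewer cells in a state and less RNA per cell cannot be told apart.

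Genes of the fibroblast list were mostly higher. Of 12 measured genes of the fibroblast list 9 were higher (75.0%, against 18.2% of all genes) and 0 lower, and after the general shift was removed 3 were. Tagln, an actin-binding protein, had 19.6 RPKM against 2.83 and 3.56, and Cyr61, a secreted matrix protein induced by growth factors, had 18.9 against 3.67 and 3.83. Fn1, fibronectin, had 164 against 52.2 and 50.4, and Vim, vimentin, had 47.6 against 17.6 and 19.97. Mmp2, at 8.81 against 2.65 and 2.66, and Thy1, at 8.32 against 2.91 and 2.61, were higher too. Some other members, picked after their values were seen, were low or at 0. Col1a1 had 1.06 RPKM against 0.132 and 0.0866, and Col3a1 had 0.0189 against 0.00435 and a listed 0. Dcn was listed at 0 against 0 and 0.0122, and Lum and Fap were listed at 0 in all 3 inputs. The summed level of the list was 372 RPKM in the first input and 139 and 142 in WT. In the 5 members of at least 20 windows with a known strand, all 5 were higher in the 5′ part and 1 in the last. Over all such genes 33.1% were higher in the 5′ part and 10.1% in the last.

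The endoderm list went the same way through its basement membrane genes. All 6 measured members were higher, 2 of them after the shift was removed: Krt19, a keratin, at 10.7 against 1.64 and 1.58, the collagen Col4a1 at 8.13 against 2.05 and 1.68, the laminins Lama1, Lamc1 and Lamb1, and Sparc at 91.8 against 35.2 and 38.2. The factors that define endoderm were low in all inputs. Gata4 had 1.86 against 0.351 and 0.511, Gata6 had 0.433 against 0.157 and 0.222, and Sox17 had 0.240 against 0.0922 and 0.109. The summed level of the list was 224 RPKM against 84.6 and 85.8. In the trophectoderm list 4 of 8 measured members were higher and 0 lower, led by Krt18 at 23.5 against 4.51 and 4.18, while Cdx2, its defining factor, had 0.158 against 0.0259 and 0.0508. Of the neural list 2 of 11 were higher (18.2%, the share of all genes), Msi1 and Gbx2, and of the mesoderm list 0 of 3 were called.

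**Figure D5:**
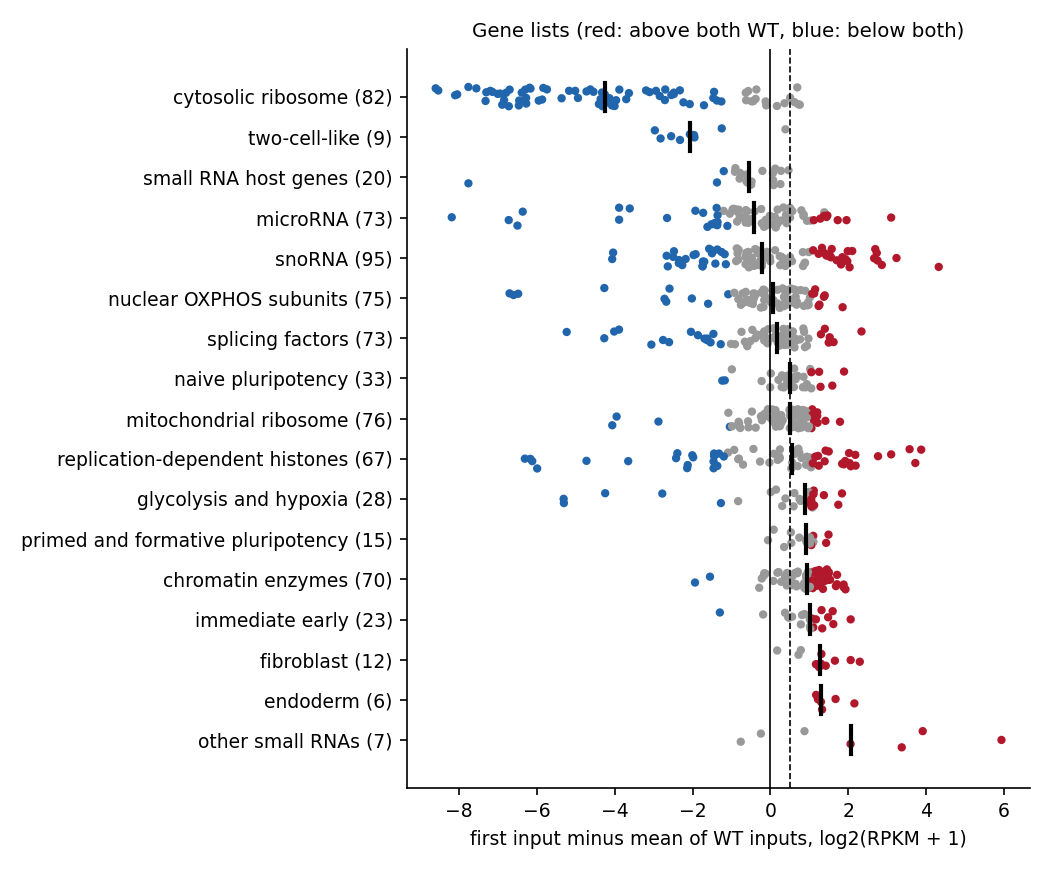
Each point is a measured member of 1 of 17 gene lists, placed by its difference in log2(RPKM + 1) between the first input and the mean of the WT inputs; red marks genes above both WT inputs by at least 1, blue those below both, and bars mark medians. The solid line is 0 and the dashed line the median of all measured genes (0.51); ribosomal protein genes reach −8.60 and Rmrp, among the other small RNAs, 5.94.

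Chromatin enzymes, which have long transcripts (a median of 134 windows against 58 over all genes), were higher in 30 of 70 (42.9%, against 18.2% of all genes) and lower in 2 (2.86%, against 8.46%). Chd7, a nucleosome remodeller, had 12.6 RPKM against 2.59 and 2.52, Smarca4, the ATPase of the SWI/SNF complex, had 57.9 against 15.1 and 14.9, and the acetyltransferase Crebbp had 15.2 against 3.42 and 3.36. The deacetylase Hdac1 was lower, at 15.7 against 60.8 and 65.0, with 27 missing windows. The median of the list was 1.42 in the 5′ part and 0.20 in the 3′ part of 49 members, against 0.79 and 0.046 over all genes. After the general shift was removed 6 of the 70 were higher. Transcript length moved with this result, and its part in it was not tested.

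Immediate early genes, which respond to growth factors within minutes, were higher in 10 of 23 (43.5%, against 18.2% of all genes) and lower in 1, and 3 were higher after the general shift was removed. Junb had 23.5 RPKM against 6.87 and 7.09, and the phosphatase genes Dusp5 and Dusp4 had 7.75 against 1.91 and 1.85 and 8.36 against 2.43 and 2.27. Btg1, an antiproliferative gene, was lower at 3.72 against 10.3 and 10.9. Here as well more members were higher in the 5′ part (13 of 16, 81.25%) than in the 3′ part (1 of 16, 6.25%). Over all genes of at least 20 windows with a known strand these shares were 33.1 and 10.1%.

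Metabolic genes were split. Of 28 glycolysis and hypoxia genes 11 were higher and 5 lower (39.3 and 17.9%, against 18.2 and 8.46% of all genes). After the general shift was removed 2 were higher and 6 lower. Slc2a1, the glucose transporter GLUT1, had 127 RPKM against 35.8 and 33.9, and Aldoc had 21.4 against 5.32 and 6.04. Pgam1 had 4.41 against 208 and 220, Pgk1 had 7.01 against 155 and 148, Eno1 had 69.7 against 480 and 489, and Gapdh had 1.13 against 76.1 and 92.3. All 5 lower genes had at least 20% of covered windows missing. Genes of cholesterol synthesis and uptake were higher in 9 of 27 (33.3%) and lower in 1 (3.70%). After the general shift was removed 3 were higher and 3 lower, with a median of −0.019. Fasn, fatty acid synthase, had 73.8 against 20.9 and 20.8, and Srebf2, the factor that turns on this pathway, had 69.7 against 22.8 and 22.3. Idi1, an isomerase of the pathway, had 0.457 against 33.9 and 37.1, with 48 missing windows.

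Of mitochondrial genes only nuclear ones could be recognised by name. No symbol in the files is that of a gene of the mitochondrial genome, and genes with a UCSC identifier only were not named, so that class was not analysed here. Of 75 nuclear subunits of oxidative phosphorylation 8 were higher and 10 lower (10.7 and 13.3%), with a median of 0.076 that turned to −0.43 after the shift was removed. Atp5g2, a subunit of the rotor ring of ATP synthase, had 0.732 RPKM against 179 and 181, and Cox7c, of cytochrome c oxidase, had 2.47 against 342 and 330. All 10 lower genes had at least 20% of covered windows missing. Of 76 mitochondrial ribosomal protein genes 9 were higher and 4 lower, unlike the cytosolic set in which 66 of 82 were lower. Mrpl54 had 57.0 against 15.5 and 16.1, and Mrps36 had 0.133 against 16.9 and 19.12. The difference between the 2 ribosomal lists was not tested.

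Other housekeeping lists were lower in part. Splicing factors had 6 higher and 15 lower of 73, among them Hnrnpa1, which binds pre-mRNA, at 9.74 RPKM against 401 and 407, and Hnrnpf at 9.27 against 195 and 199. Translation factors had 10 higher and 12 lower of 61. Eef1g, a subunit of elongation factor 1, had 28.8 against 289.8 and 312, and Eif4a1, a helicase of initiation, had 101 against 545 and 553. Chaperone and stress genes had 2 higher and 7 lower of 33. Hsp90aa1 had 239.8 against 1279 and 1309, and Hspd1, the mitochondrial chaperonin, had 63.5 against 351 and 358. The proteasome list had 1 higher and 4 lower of 37. Lower shares were 20.5% (splicing), 19.7% (translation), 21.2% (chaperones) and 10.8% (proteasome), against 8.46% of all genes, so that of the proteasome was near the background. Higher shares were 8.22, 16.4, 6.06 and 2.70% in the same order, against 18.2% of all genes. All 15 lower splicing genes, all 12 lower translation factors and all 4 lower proteasome genes had at least 20% of covered windows missing. Medians of the splicing (0.16), translation (0.39), chaperone (0.34) and proteasome (0.12) lists fell below 0 once the general shift was removed.

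Mettl3 itself was higher, at 16.3 RPKM against 5.97 and 5.72, 2.79 times the WT mean, and by coverage at 12.9 against 4.79 and 4.67. Its 5′ part had 13.8 against 3.34 and 4.08, and its 3′ part 16.2 against 5.96 and 5.35, so both ends differed. Of 20 m6A writers, erasers and readers 4 were higher and 1 lower (20 and 5%), close to the shares of all genes. The others higher were Rbm15b, an adaptor of the writer complex, at 17.0 against 5.68 and 6.14, and the binding proteins Igf2bp1 (77.2 against 33.8 and 35.95) and Igf2bp2 (28.7 against 12.6 and 13.6). Wtap, the scaffold of the writer complex, was lower at 8.50 against 18.0 and 19.05, with 21 missing windows. After the general shift was removed 0 of the 20 were higher and 2 lower. The difference of Mettl3 was then 0.83, so Mettl3 was no longer called.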

How the data were processed

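Reads were aligned with TopHat 1.1.3 to mm9, per the submitters' processing notes. The authors deposited RPKM values per gene for the inputs and, per the file headers, coverage (a signal that is never negative) of input and immunoprecipitate in 1510223 exon windows, its median per gene, and a log2 score, which served only to tell input from immunoprecipitate. How RPKM and coverage were scaled is not given in the sources used here. RPKM columns labelled KO input (2) were not used. Members were found by library title. The members and the 40 gene lists were chosen with earlier results of these data known. Named were the 12 highest and 12 lowest genes by the smaller difference to the WT inputs among those that coverage called alike, up to 6 members per list by size of that difference, any naive or primed gene, and Mettl3; other names are marked as picked after their values were seen, and so were Rnu73b, markers at or near 0 and the Mir290 cluster. Sequences and strand came from RefSeq (GRCm38.p6). The calling rule was run on values simulated from the WT mean with planted changes (Python 3.11.15, pandas 2.3.3, numpy 2.4.6, figures with matplotlib 3.10.9). The simulation held no general shift, missing windows or copies, so it checks the rule's calculation only and not the calls in these data.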

Additional observations from a re-analysis of the deposited data

How the results depend on the processing

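With 1 library against 2 no value here has a test, and leaving out either WT input moved none of the counts below by over 1.5 times: without WT input 1 or 2 the length trend was 0.81 and 0.77. Settings on copies, transcript ends and missing windows were chosen after the data were seen. No paired analysis was possible because the first input has no replicate number. Depth limits genes near 1 RPKM, where few reads stand behind a value. Genes higher (2080) became 1185 at 5 RPKM, 46 at a difference of 2, 3408 with columns scaled to an equal sum and 371 after the median was subtracted; genes lower (966) became 558 at a difference of 2 and 608 without signs of copies. Without such signs 10 ribosomal protein genes and 5 histone genes were lower. At 5 RPKM, counts of higher members were 4 (histones), 4 (fibroblast), 19 (chromatin) and 4 (immediate early), and of lower members 7 (histones) and 3 (2-cell-like). At a difference of 2, higher members were 8, 2, 0 and 1 in the same order and 1 (endoderm), and lower members 9 and 5. After the median was subtracted higher members were 13, 3, 6 and 3 in that order and 2 (endoderm). The median of windows gave 1000 genes higher in coverage against 1888 from means. The length trend (0.78) was 0.95 and 0.87 at pseudocounts of 0.1 and 0.5, 0.45 with no filter, 1.17 at 5 RPKM, 0.91 at equal sums, 0.73 in coverage, 0.57 without signs of copies, 0.63 in the 5′ and −0.020 in the 3′ part, and 0.32 without missing windows. Medians turned below 0 by more than the spread between the WT inputs after subtraction for oxidative phosphorylation (−0.43), proteasome (−0.39), translation (−0.12), splicing (−0.35), Zfp (−0.13), lincRNA (−0.22), general pluripotency (−0.19), interferon (−0.070), p53 (−0.25) and chaperones (−0.17). By the same measure they turned below 0 in the 3′ part of the windows for replacement histones (−1.98), proteasome (−0.41), translation (−0.19), splicing (−0.50), Zfp (−0.17), general pluripotency (−0.040), naive (−0.16), mesoderm (−0.60), germ cell (−0.36), p53 (−0.36), immediate early (−0.17), chaperones (−0.18) and m6A genes (−0.22). Small RNA hosts turned to 0.42 in the 5′ part. Medians that crossed 0 within that spread are not listed. The cause of these moves was not tested.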

Other observations

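Imprinted genes, expressed from 1 parental allele, were higher in 7 of 27 measured (25.9%, against 18.2% of all genes) and lower in 0 (against 8.46%). Peg3, a zinc finger gene, had 30.2 RPKM in the first input against 8.01 and 8.25 in the WT inputs, and Igf2, a growth factor, had 5.49 against 1.18 and 1.14. H19, its noncoding neighbour, had 6.21 against 1.89 and 2.24. After the general shift was removed 3 of the 27 were higher and 1 lower. Solute carriers were higher in 21 of 148 (14.2%, below the 18.2% of all genes) and lower in 1, the ADP/ATP carrier Slc25a5, at 76.8 against 382 and 389. Cell cycle genes were higher in 6 of 39 (15.4%, also below that share), with Mki67, a marker of dividing cells, at 46.2 against 13.7 and 14.5. The 2 lower ones, the mitotic cyclin Ccnb1 (24.9 against 121 and 124) and the replication clamp Pcna (87.2 against 185 and 193), both carried signs of copies.

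Zfp genes were higher in 44 of 264 (16.7%) and lower in 12 (4.55%), both below the shares of all genes (18.2 and 8.46%). Zfp600 had 1.89 RPKM against 103 and 120 with 76 missing windows, and Zfp534 had 6.93 against 75.4 and 91.9 with 44. Neither carried a sign of copies by the criteria used. Their median of 0.39 turned to −0.13 once the general shift was removed.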
